A study of Mus musculus with 6 samples.

Results

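The respiratory chain genes of the cell nucleus were followed in wild-type and Mettl5-deficient mouse embryonic stem cells. Members were the protein-coding genes whose GENCODE M21 symbol begins with Ndufa, Ndufb, Ndufc, Ndufs or Ndufv and a digit (or Ndufab1), Uqcr, Cox4 to Cox8 or Atp5, together with Sdha, Sdhb, Sdhc and Sdhd. The deposited table held 83 such genes among 24191: 36 of complex I, 4 of complex II, 8 of complex III, 18 of complex IV and 17 of complex V. Cox6a2, Cox8b and a second locus annotated as Atp5o also match by name and were not analysed here.

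PolyA RNA came from 3 wild-type (WT) libraries and 3 Mettl5 -/- (knockout) libraries of the J1 line of embryonic stem cells, all kept for 7 days in serum with LIF, a cytokine that holds mouse stem cells undifferentiated. Mettl5 encodes the enzyme that methylates an adenosine of 18S ribosomal RNA. The labels do not state how the allele was made or how many clones were used. Nor do they say that the libraries of a genotype were separate cultures, so a p-value speaks only of the variation among these 6 libraries, part or all of which may be technical.

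The chain sits in the inner mitochondrial membrane. Complex I (NADH dehydrogenase) and complex II (succinate dehydrogenase) pass electrons to coenzyme Q, complex III hands them to cytochrome c, and complex IV passes them to oxygen. Complexes I, III and IV pump protons, and complex V, the ATP synthase, uses the gradient to make ATP. A few subunits are encoded in mitochondrial DNA, and the rest are encoded in the nucleus and imported. Mouse embryonic stem cells cultured with serum and LIF respire but also run strong glycolysis.

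Levels are given on the deposited TPM scale, which corrects for transcript length. Fold changes, with a standard error (SE), are knockout against WT on the log2(scaled reads + 1) scale. They come from limma fitted to 24183 genes, with p-values adjusted by Benjamini-Hochberg over all of them and a threshold of 0.05. The scaled reads and the TPM scale were put on a common footing in different ways, so the sign of a small fold change need not match the levels printed with it. For that reason a second count was made of genes called in the same direction under each of 5 scalings: scaled reads as deposited, at equal totals and at equal upper quartiles, and the TPM scale as deposited and at equal totals. Each other scaling moved the median log2 fold change of all tested genes down from 0.00. It was -0.15 at equal totals and -0.12 at equal upper quartiles. On the TPM scale it was -0.05 as deposited and -0.105 at equal totals. A call of lower was thus hard to lose, and the second count mainly tested calls of higher. Of the 6998 genes called lower as deposited, 6887 kept the call under all 5 scalings.

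Mettl5 itself measured 50.3, 48.6 and 48.7 in WT and 3.65, 3.58 and 3.32 in knockout libraries. The scaled reads summed to between 46077000 and 51830000 per library, and the step between low values gave an estimated 38540000 to 59640000 fragments. Genes of chromosomes 6, 8 and 11 were lower in general in the knockout libraries, with median log2 fold changes of -0.29, -0.38 and -0.41. Of 6 stem cell markers, 5 were called lower and none higher, and their summed level went from between 2479 and 2570 in WT to between 1833 and 1924. Of 7 trophectoderm markers, 6 were called higher and none lower, and their sum went from between 63.3 and 64.3 to between 1521 and 1579. The keratins Krt8 (29.4 to 782) and Krt18 (20.9 to 737) held most of it: the other 5 markers summed to between 13.1 and 14.0 in WT and between 26.7 and 26.8 in the knockout, and Elf5, not called, went from 0.212 to 0.139. Of 8 fibroblast markers, 7 were called higher and 1 lower, and their sum went from between 14.5 and 17.0 to between 32.9 and 34.5. Beside these marker counts, 33.6% of all tested genes were called higher and 28.9% lower. No marker was at 0 in all libraries of a genotype. The part of the marker changes in the values that follow was not tested, and in bulk RNA fewer cells of a type and less RNA per cell cannot be told apart.

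The respiratory chain genes moved in both directions and mostly by little. With the deposited scaling 33 of the 83 were called higher, against 33.6% of all tested genes, and 29 were called lower, against 28.9%. The other 21 were not called, and 62.6% of all genes were called in either direction. On the TPM scale the genotypes did not overlap for 21 members that were higher and 40 that were lower in the knockout, beside 32.5% and 35.7% of all tested genes, so lack of overlap was common. All 83 passed the minimum of 1 scaled read. Their median log2 fold change was 0.01, beside 0.00 over all tested genes. Only Ndufa4l2 and Cox4i2 had a log2 fold change of 1 or more in size, against 22.6% of all genes, and 10 members changed by at least 0.5, against 47.1%. The median size of a member's change was 0.18, beside 0.46 over all tested genes and 0.29 over the 4244 genes that averaged 30 or more on the TPM scale. Of those 4244 genes 2155 were called higher and 1316 lower, and their median log2 fold change was 0.11. A larger part of them than of the members was called higher. Both member shares called lay somewhat above those of all tested genes. The member share called lower also lay somewhat above that of the 4244 genes. The sizes of change were smaller than in either comparison set.

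How many members rose depended on the scaling. Under equal totals 12 were called higher and 50 lower, where 26.1% and 37.8% of all genes were. On the TPM scale as deposited the counts were 19 and 38, beside 29.9% and 31.9%. Under all 5 scalings 12 kept a call of higher and 29 a call of lower, beside 25.6% and 28.5% of all genes. Of the 4244 genes that averaged 30 or more on the TPM scale, 1484 and 1311 did. The 12 that were higher throughout were Ndufa2, Ndufa3, Ndufa10, Ndufa11, Ndufs8, Sdhd, Uqcrh, Cox5b, Cox6b1, Cox7a2l, Atp5e and Atp5o. Atp5c1 and Atp5d were called in opposite directions by different scalings, as 0.12% of all genes were. Against a minimum change of 1.2 fold, 8 members were higher and 8 lower, beside 21.8% and 18.2% of all genes.

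**Figure D1:**
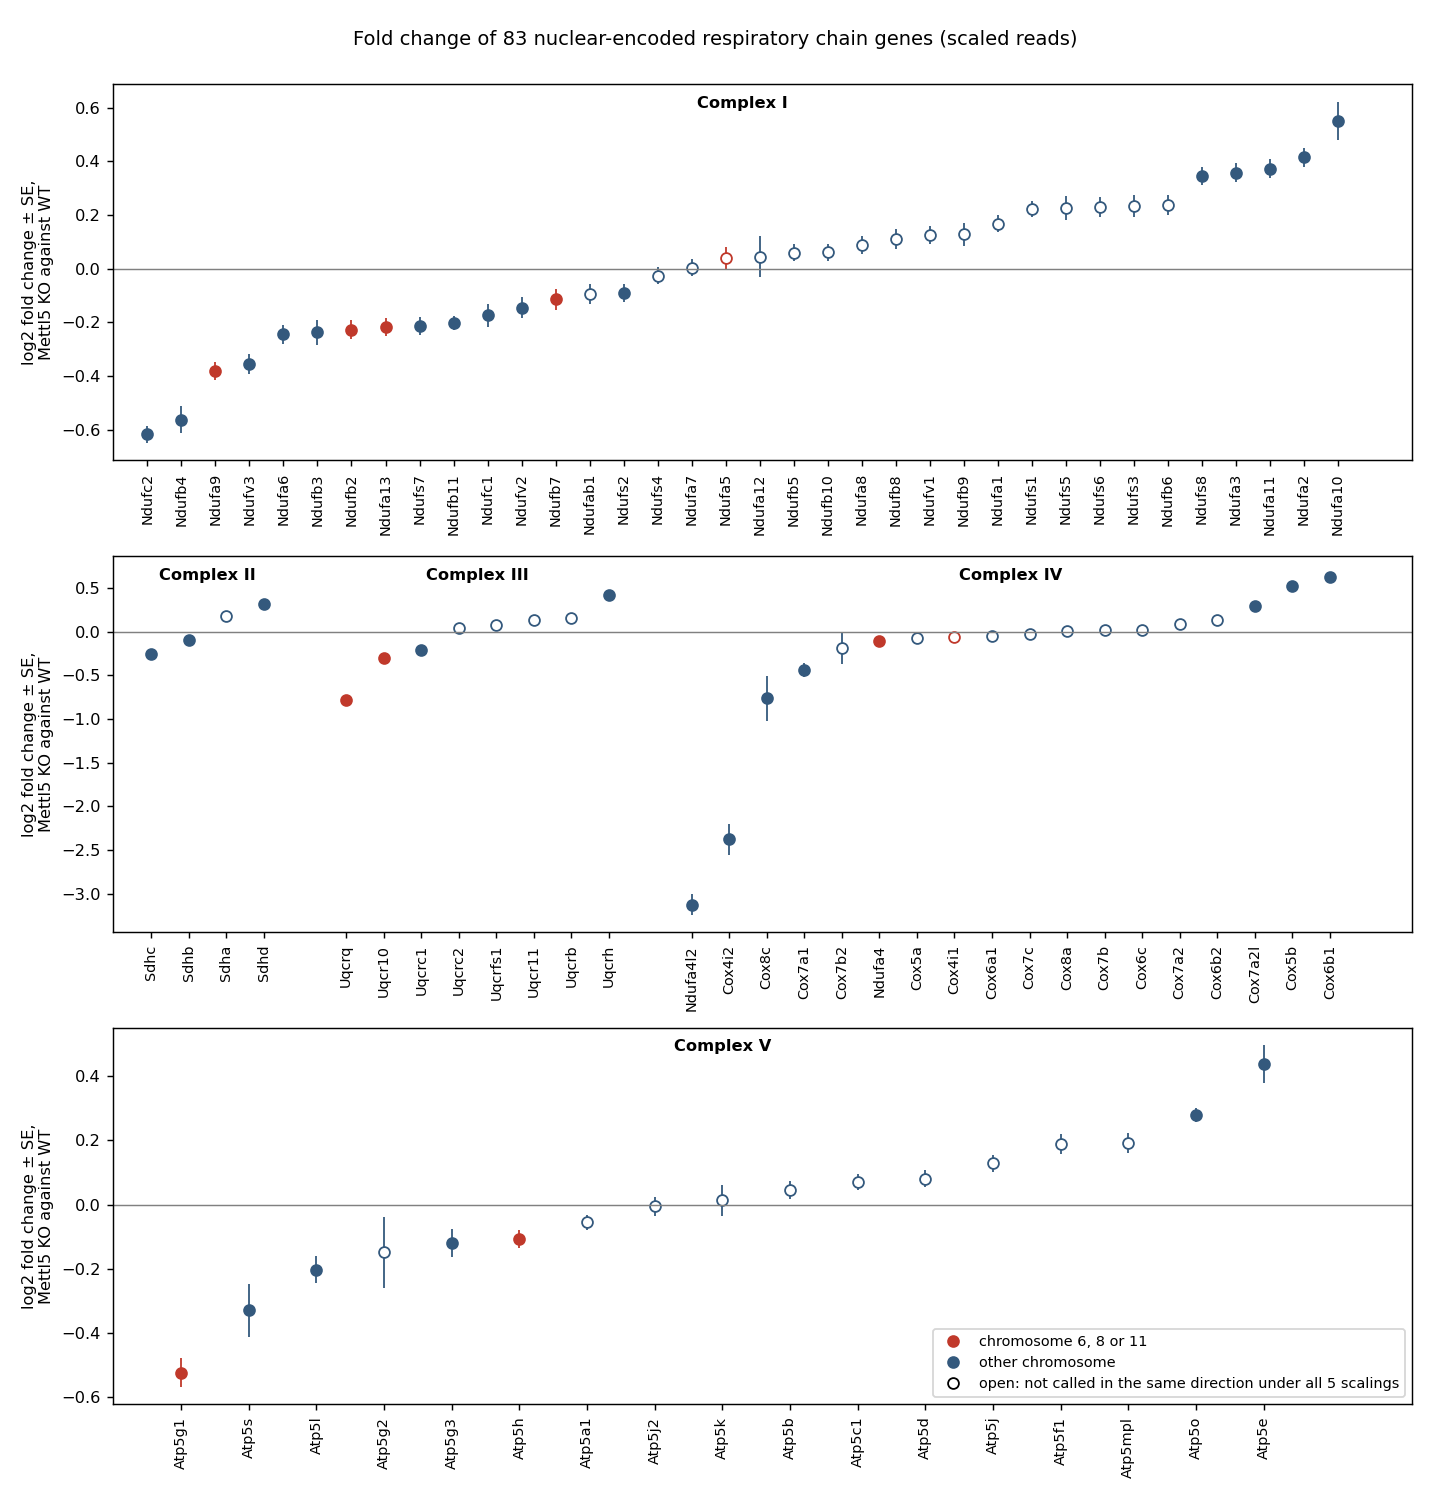
Log2 fold change (knockout against WT, points, with SE bars) of the 83 members, ordered within complexes I to V. Red points are genes of chromosomes 6, 8 and 11, and open points lack the same call under all 5 scalings; most points lie between -0.5 and 0.5, and Ndufa4l2 (-3.12) and Cox4i2 (-2.38) lie far below.

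The summed level of the members was 23838 ± 334 (SD, n = 3) on the TPM scale in WT and 22691 ± 329 (SD, n = 3) in knockout libraries. Because the deposited TPM totals also differ, the share of each library was computed too. It was 2.47%, 2.47% and 2.41% in WT and 2.26%, 2.20% and 2.21% in the knockout, so the genotypes did not overlap. The share of complex I genes went from 0.620% ± 0.009 to 0.559% ± 0.004 (SD, n = 3 each), and that of complex V genes from 0.806% ± 0.011 to 0.729% ± 0.018 (SD, n = 3 each). The share of complex IV genes was 0.650% ± 0.010 in WT and 0.611% ± 0.010 (SD, n = 3 each) in the knockout. That of complex III genes was 0.307% ± 0.007 and 0.263% ± 0.003, and that of complex II genes 0.0645% ± 0.0016 and 0.0594% ± 0.0007 (SD, n = 3 each). A share falls when other genes take more of the library, so these values do not separate a fall in the members from a rise elsewhere. The sums and shares also leave out the pseudogene copies described below, and some of those copies rose.

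In complex I, 15 of 36 genes were called higher and 14 lower, beside 33.6% and 28.9% of all tested genes. Under all 5 scalings these were 5 and 14, beside 25.6% and 28.5%. The matrix arm, which oxidises NADH, had 6 higher and 6 lower of 17, and the membrane arm, which pumps protons, had 9 and 8 of 19. Ndufa10, a membrane arm accessory subunit (chromosome 1, 92439010 to 92473860), had the largest rise. It measured 82.8, 77.9 and 95.8 in WT and 115, 122 and 118 in knockout libraries. All knockout values lay above all WT values, and the log2 fold change was 0.55 (SE 0.07, adjusted p 0.000111 by limma). Ndufa2 in the matrix arm rose by 0.41 (SE 0.04), from 136 ± 4.31 to 171 ± 7.49 (SD, n = 3 each). Ndufa11, a membrane arm subunit near the contact with complex III in supercomplexes, rose from 201 ± 8.74 to 245 ± 8.42 (SD, n = 3 each), a log2 fold change of 0.37 (SE 0.04).

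The largest fall in complex I was that of Ndufc2, a membrane arm accessory subunit on chromosome 7 (97400003 to 97407802). It measured 162, 170 and 164 in WT libraries and 99.1, 104 and 102 in knockout libraries. The groups lay far apart, with a log2 fold change of -0.62 (SE 0.03, adjusted p 2.39e-07 by limma). Ndufb4, another membrane arm subunit, was at 96.2, 104 and 97.8 in WT and 59.8, 67.8 and 65.5 in the knockout, without overlap, and its log2 fold change was -0.56 (SE 0.05). Ndufa9, which lies where the arms meet, had a log2 fold change of -0.38 (SE 0.03), but it is on chromosome 6, and with each chromosome centred on its own median this became -0.10. Ndufab1, the acyl carrier protein of complex I, was its most abundant member in WT at 471 ± 26.9 (SD, n = 3). Its log2 fold change of -0.09 (SE 0.04) missed the threshold (limma adjusted p 0.0528), although all knockout levels, 409 to 418, lay under the WT levels, 454 to 502. Without WT replicate 1 it passed (limma adjusted p 0.015). The 7 core subunits, which carry the flavin and the iron-sulfur clusters, were called higher in 4 cases and lower in 3 as deposited, and in 1 and 3 under all 5 scalings, beside 25.6% and 28.5% of all genes.

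Complex II is an enzyme of the citric acid cycle as well. Of its 4 genes 2 were called higher and 2 lower as deposited, beside 33.6% and 28.9% of all tested genes. Under all 5 scalings these were 1 and 2, beside 25.6% and 28.5%. Sdhd, a membrane anchor, was at 142, 132 and 134 in WT and at 166, 160 and 160 in knockout libraries, with no overlap and a log2 fold change of 0.31 (SE 0.03, adjusted p 2.12e-05 by limma). Sdhc, the partner anchor in the same membrane domain, moved the opposite way, from 175, 160 and 163 to 138, 127 and 132. These groups did not overlap either, and the log2 fold change was -0.26 (SE 0.04, adjusted p 0.000448 by limma). Sdhb, the iron-sulfur subunit, was lower at 189 ± 2.4 against 211 ± 1.14 (SD, n = 3 each; log2 fold change -0.09, SE 0.02). Sdha, the catalytic flavoprotein, went from 116 ± 1.34 to 123 ± 2.21 (SD, n = 3 each), and its call of higher (log2 fold change 0.18) was lost at equal totals (0.02).

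Complex III held 4 genes called higher and 3 called lower of 8, beside 33.6% and 28.9% of all tested genes. Under all 5 scalings 1 and 3 of them kept the call, beside 25.6% and 28.5% of all genes. Uqcrq, the small subunit bound to cytochrome b (chromosome 11, 53427922 to 53430831), had the largest fall of any ubiquitous subunit in the set. It measured 628, 697 and 644 in WT and 370, 343 and 355 in knockout libraries. Every knockout value was far under every WT value, with a log2 fold change of -0.78 (SE 0.04, adjusted p 2.35e-07 by limma). With chromosome 11 centred on its own median the change was -0.39. Uqcr10, another small subunit, also on chromosome 11, came to -0.30 on the log2 scale (SE 0.03), which turned to 0.10 after that centring.

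Uqcrh, the hinge protein of complex III, which helps cytochrome c1 bind cytochrome c (chromosome 4, 116066965 to 116075071), rose. Its WT levels of 484, 484 and 485 were nearly the same, and its knockout levels were 605, 623 and 605. The log2 fold change was 0.42 (SE 0.03, adjusted p 5.49e-07 by limma). Uqcrc1, a core protein of the matrix side, fell by 0.21 on the log2 scale (SE 0.03), from 153 ± 4.85 to 125 ± 0.186 (SD, n = 3 each). Uqcrb and Uqcr11 were called higher at 0.15 and 0.13, and both came to below 0 at equal totals (-0.01 and -0.02).

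**Figure D2:**
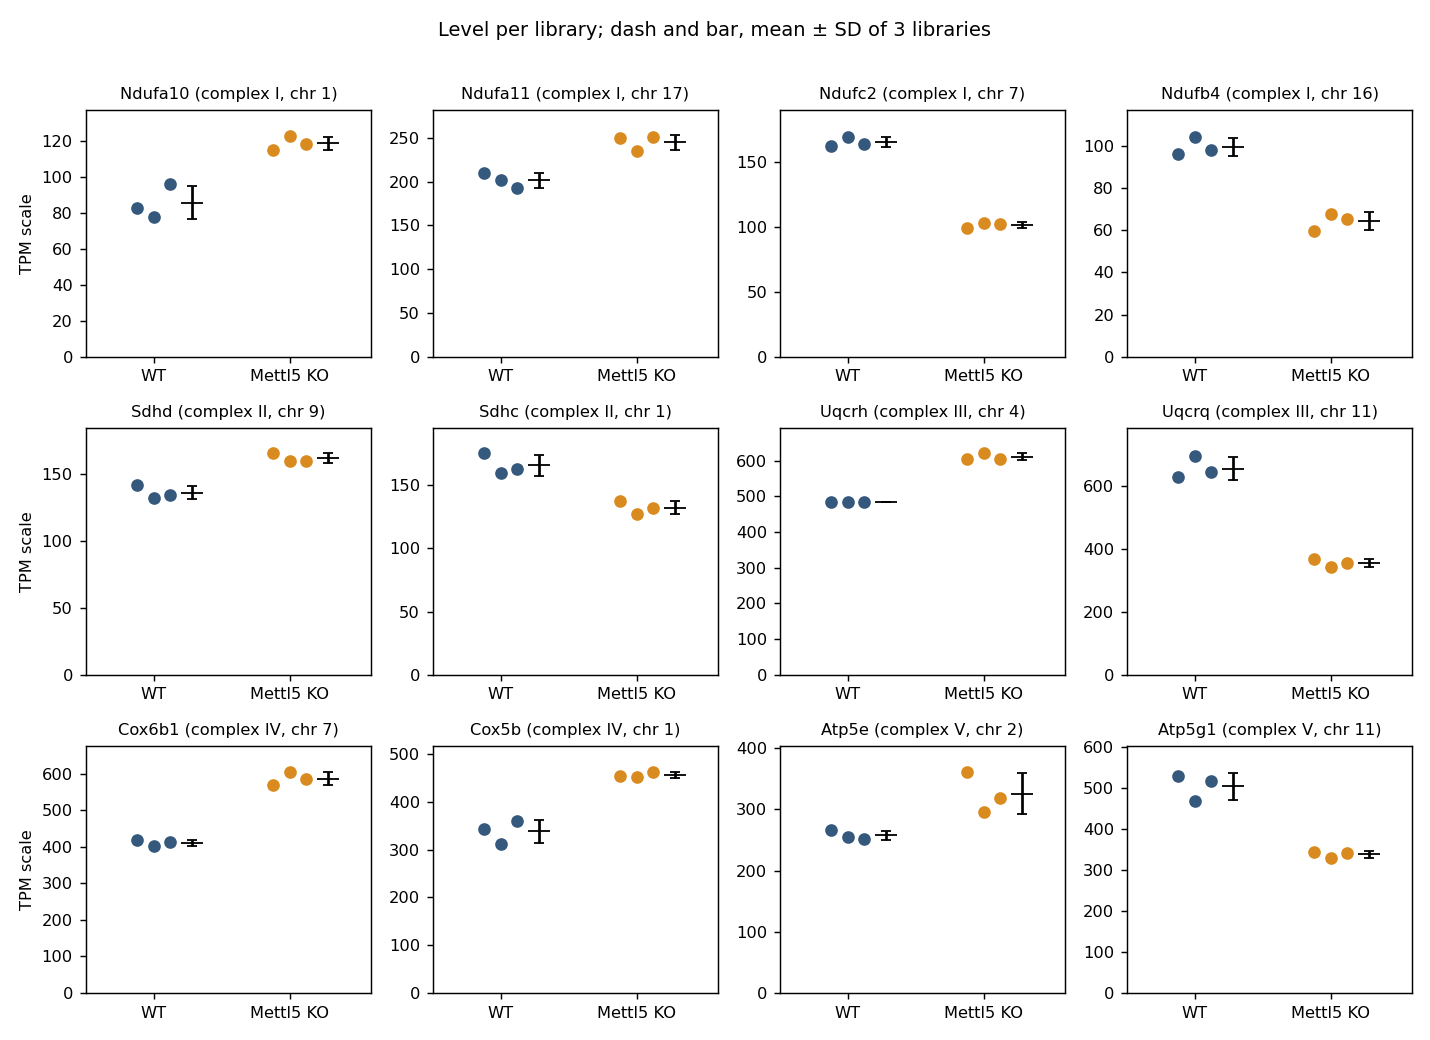
Level on the TPM scale (vertical axes from 0) of 12 members in each WT and knockout library, with mean ± SD of 3 libraries beside the points. In all 12 panels the genotypes do not overlap, as for 32.5% (higher) and 35.7% (lower) of all tested genes; Cox6b1 goes from between 401 and 418 to between 568 and 605, and Uqcrq from between 628 and 697 to between 343 and 370.

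Among the 18 complex IV genes 5 were called higher and 5 lower, beside 33.6% and 28.9% of all tested genes. Under all 5 scalings these were 3 and 5, beside 25.6% and 28.5%. Cox6b1, a subunit on the intermembrane side (chromosome 7, 30616861 to 30626151), had the largest rise of all members. It was at 418, 401 and 412 in WT and 568, 605 and 585 in knockout libraries. The knockout values lay well above, with a log2 fold change of 0.63 (SE 0.04, adjusted p 5.19e-07 by limma). Cox5b, a zinc-binding matrix subunit, rose from 342, 312 and 360 to 453, 452 and 463. Its groups did not overlap, and its log2 fold change was 0.52 (SE 0.05, adjusted p 1.96e-05 by limma). Cox7a2l, which joins complexes III and IV in supercomplexes, rose by 0.30 (SE 0.02), from 240 ± 3.28 to 281 ± 2.61 (SD, n = 3 each). Cox4i1, the most abundant member of the complex in WT, was at 929 ± 18.7 and 844 ± 29.4 (SD, n = 3 each), and its log2 fold change of -0.06 did not pass (limma adjusted p 0.105; 0.0325 without knockout replicate 1). It lies on chromosome 8, and centred on that chromosome its value was 0.31.

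The tissue-restricted isoforms of complex IV held the 2 largest falls of the set. Ndufa4l2, an isoform of Ndufa4 known to be induced by hypoxia (chromosome 10, 127514967 to 127517154), measured 11.9, 10.8 and 11.1 in WT and 1.15, 1.06 and 1.45 in knockout libraries. The knockout mean was 0.109 of the WT mean, and the log2 fold change was -3.12 (SE 0.12, adjusted p 2.71e-08 by limma). Cox4i2, an isoform of Cox4i1 also known as hypoxia-responsive (chromosome 2, 152754173 to 152765037), measured 6.48, 6.69 and 6.74 in WT and 0.882, 1.30 and 1.47 in the knockout. The groups lay far apart, with a log2 fold change of -2.38 (SE 0.18, adjusted p 2.49e-06 by limma). Cox7a1, the isoform of heart and muscle, fell by 0.44 (SE 0.08), from 37.6 ± 2.42 to 25.9 ± 2.73 (SD, n = 3 each). Cox8c was low throughout, at 1.37 ± 0.327 and 0.723 ± 0.112 (SD, n = 3 each), with a log2 fold change of -0.76 (SE 0.25, adjusted p 0.0257 by limma). That call was lost when WT replicate 2 or knockout replicate 2 was left out (limma adjusted p 0.0992 and 0.0811). Cox7b2 did not pass (log2 fold change -0.19, limma adjusted p 0.37). Cox6b2, the testis isoform, was called higher at 0.14 as deposited and came to -0.02 at equal totals. Its call was also lost on leaving out any library other than WT replicate 1 (limma adjusted p 0.0642 to 0.125).

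Set against its ubiquitous partner, each of these isoforms was a small part of the pair. Cox4i2 made up 0.678%, 0.717% and 0.734% of Cox4i1 plus Cox4i2 in WT and 0.101%, 0.159% and 0.175% in the knockout. Ndufa4l2 made up 1.80%, 1.67% and 1.76% of its pair in WT and 0.206%, 0.198% and 0.264% in the knockout. For both the genotypes were far apart, and the pair sums went from 935 ± 18.6 to 845 ± 29.1 and from 645 ± 16.5 to 550 ± 11.6 (SD, n = 3 each). The share of Cox7a1 went from 8.92% ± 0.61 to 6.34% ± 0.53, and that of Cox6b2 from 11.2% ± 0.50 to 8.34% ± 0.27 (SD, n = 3 each). Beside the rise of Cox6b1, the Cox6b2 level itself was 51.8 ± 3.63 and 53.3 ± 0.234 (SD, n = 3 each).

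**Figure D3:**
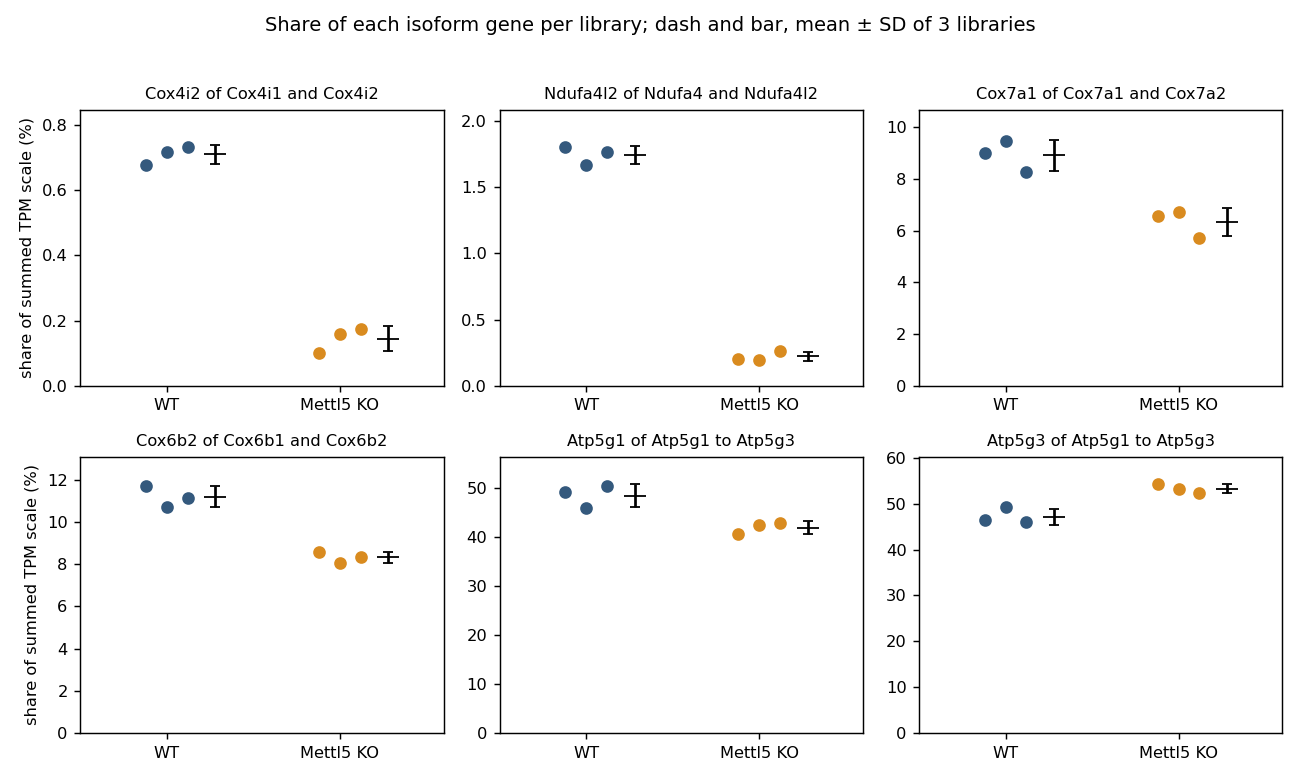
Share (%, vertical axes from 0) of 4 complex IV isoform genes in the summed TPM-scale level of their pair, and of Atp5g1 and Atp5g3 in that of the 3 c-ring genes, for each library with mean ± SD of 3 libraries. The genotypes do not overlap in any panel; Ndufa4l2 goes from 1.74% to 0.223% and Cox4i2 from 0.710% to 0.145%.

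In complex V 7 of 17 genes were called higher and 5 lower, beside 33.6% and 28.9% of all tested genes. Under all 5 scalings these were 2 and 5, beside 25.6% and 28.5%. Atp5b, the catalytic beta subunit and the most abundant of all members, was at 1739, 1666 and 1769 in WT and 1703, 1679 and 1694 in knockout libraries. Its groups overlapped and it did not pass (log2 fold change 0.04, SE 0.03, adjusted p 0.21 by limma). Atp5e, the small epsilon subunit of the central stalk, rose from 266, 255 and 251 to 362, 296 and 319. The knockout values were spread but all lay higher, with a log2 fold change of 0.44 (SE 0.06, adjusted p 0.000144 by limma). Atp5o, the stalk subunit OSCP, rose by 0.28 (SE 0.02), from 373 ± 5.86 to 429 ± 2.09 (SD, n = 3 each). Atp5mpl, a small membrane subunit, was called higher at 0.19 as deposited but not at equal totals (0.04).

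The c ring, which turns as protons pass, is built from 1 mature protein that Atp5g1, Atp5g2 and Atp5g3 all encode. Atp5g1 (chromosome 11, 96068852 to 96075670) was at 530, 467 and 516 in WT and 345, 329 and 341 in knockout libraries. The groups were far apart, with a log2 fold change of -0.52 (SE 0.04, adjusted p 5.77e-06 by limma), and of -0.13 with chromosome 11 centred. Atp5g3 on chromosome 2 went from 490 ± 17.2 to 430 ± 27.8 (SD, n = 3 each; log2 fold change -0.12, SE 0.04, adjusted p 0.037 by limma). That call was lost when WT replicate 1, WT replicate 2, knockout replicate 2 or knockout replicate 3 was left out (limma adjusted p 0.0944 to 0.131). The summed level of the 3 genes went from 1040 ± 34.0 to 806 ± 39.1 (SD, n = 3 each). Atp5g1 held 48.5% ± 2.3 of it in WT and 42.0% ± 1.3 in the knockout, and Atp5g3 held 47.2% ± 1.8 and 53.3% ± 1.0 (SD, n = 3 each). Atp5s, the coupling factor B gene, was low and fell by 0.33 (SE 0.08), from 11.9 ± 1.26 to 8.95 ± 0.426 (SD, n = 3 each).

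Position on the chromosomes moved with part of these values. Of the 11 members on chromosomes 6, 8 and 11, 0 were called higher and 9 lower, where 16.1% and 53.3% of all tested genes there were. They are Ndufa4, Ndufa5, Ndufa9 and Ndufb2 on chromosome 6, Cox4i1, Ndufa13 and Ndufb7 on chromosome 8, and Uqcrq, Uqcr10, Atp5g1 and Atp5h on chromosome 11. Of the 72 members elsewhere 33 were called higher and 20 lower, where 37.3% and 23.8% of genes were. Their median log2 fold changes were -0.22 and 0.05. With each chromosome centred on its own median, 7 of the 11 were called higher and 3 lower, and over all 83 members the counts were 26 higher and 31 lower, beside 31.7% and 29.1% of all genes. Uqcrq, Atp5g1 and Ndufa9 were the 3 that remained lower after centring. The cause of the chromosome pattern was not tested.

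**Figure D4:**
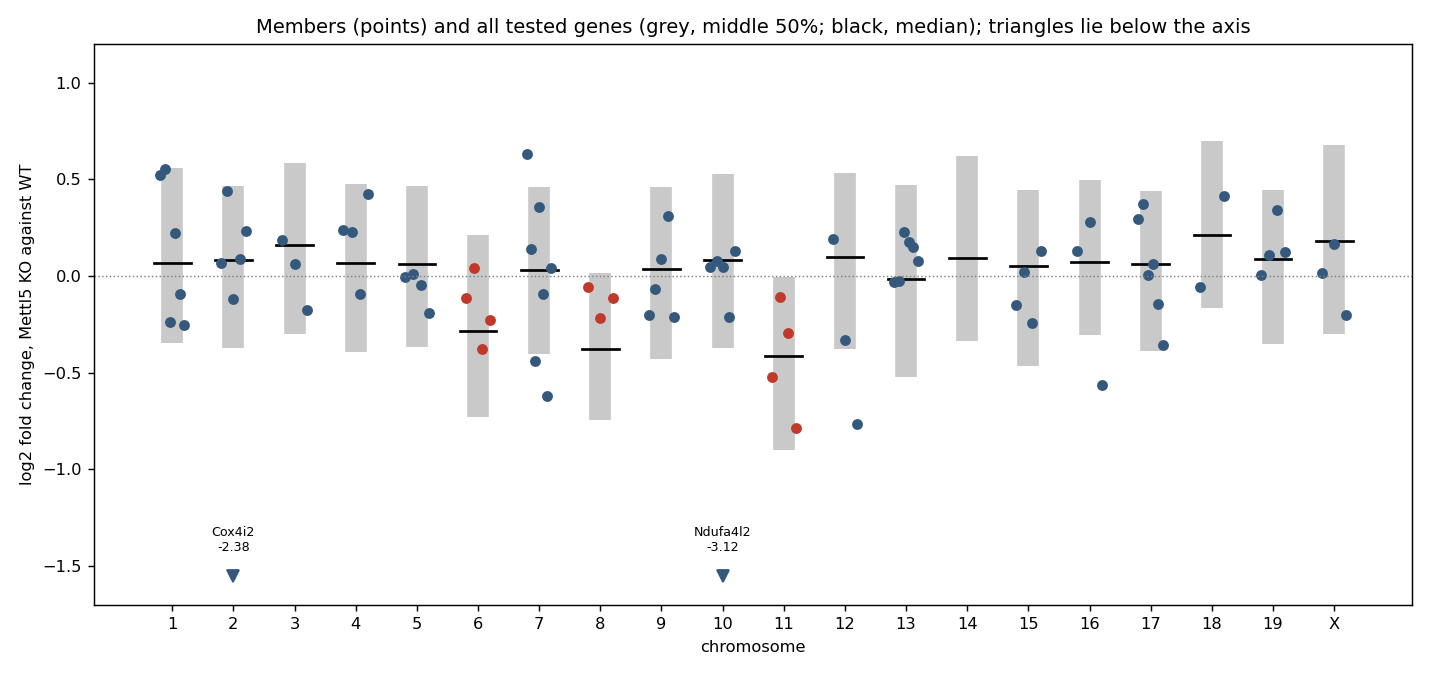
Log2 fold change of each member (points) by chromosome, over the middle 50% (grey bars) and the median (black lines) of all tested genes there; triangles mark Cox4i2 and Ndufa4l2, below the axis. The medians of chromosomes 6, 8 and 11 (-0.29, -0.38 and -0.41) lie under those of all other chromosomes, and all 4 members of chromosome 11 lie under 0.

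Respiratory chain genes have many processed pseudogenes, and the read estimates of a gene and its copy can be split between them. Of the members, 8 shared at least 100 words of 31 bases with a pseudogene of the table, 10 pseudogenes in all. Several copies were listed higher than the gene itself. The copy of Atp5g2, Gm10175, was at 401 ± 29.5 in WT while Atp5g2 was at 45.0 ± 6.47 (SD, n = 3 each). Gm12338, a copy of Cox7c, had a higher mean than the gene only in the knockout. There it was at 1405 ± 167 beside 730 ± 29.6, and in WT at 743 ± 99.5 beside 796 ± 68.6 (SD, n = 3 each). With the scaled reads of the copies added to the member, Atp5l lost its call of lower (limma adjusted p 0.002 alone and 0.668 with copies, log2 fold change -0.20 and -0.02). Cox7c and Atp5g2, not called alone (-0.03 and -0.15), were called higher with their copies (0.18 and 0.15), as was Ndufa12 (0.05 alone, 0.22 with its copy). Thus the c-ring sum and shares above depend on where reads of Gm10175 belong. Cox7c with its copies went from a sum of 1540 ± 32.4 to 2135 ± 139 (SD, n = 3 each). The falls in the complex IV share and in the summed level of all members therefore also depend on where reads of the copies belong.

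Other members kept their calls with copies added. Ndufb4 with Ndufb4c went from a sum of 618 ± 39.1 to 419 ± 8.27, and Cox7a2l with Gm6969 from 478 ± 15.6 to 658 ± 26.1 (SD, n = 3 each). Ndufs5 was called higher alone (0.23) and with its copy (0.32), and Atp5h lower in both (-0.11 each). Ndufs3, Atp5a1 and Uqcrc1 had values identical to those of an identifier that GENCODE M21 does not hold, so their reads may be split in the same way.

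**Figure D5:**
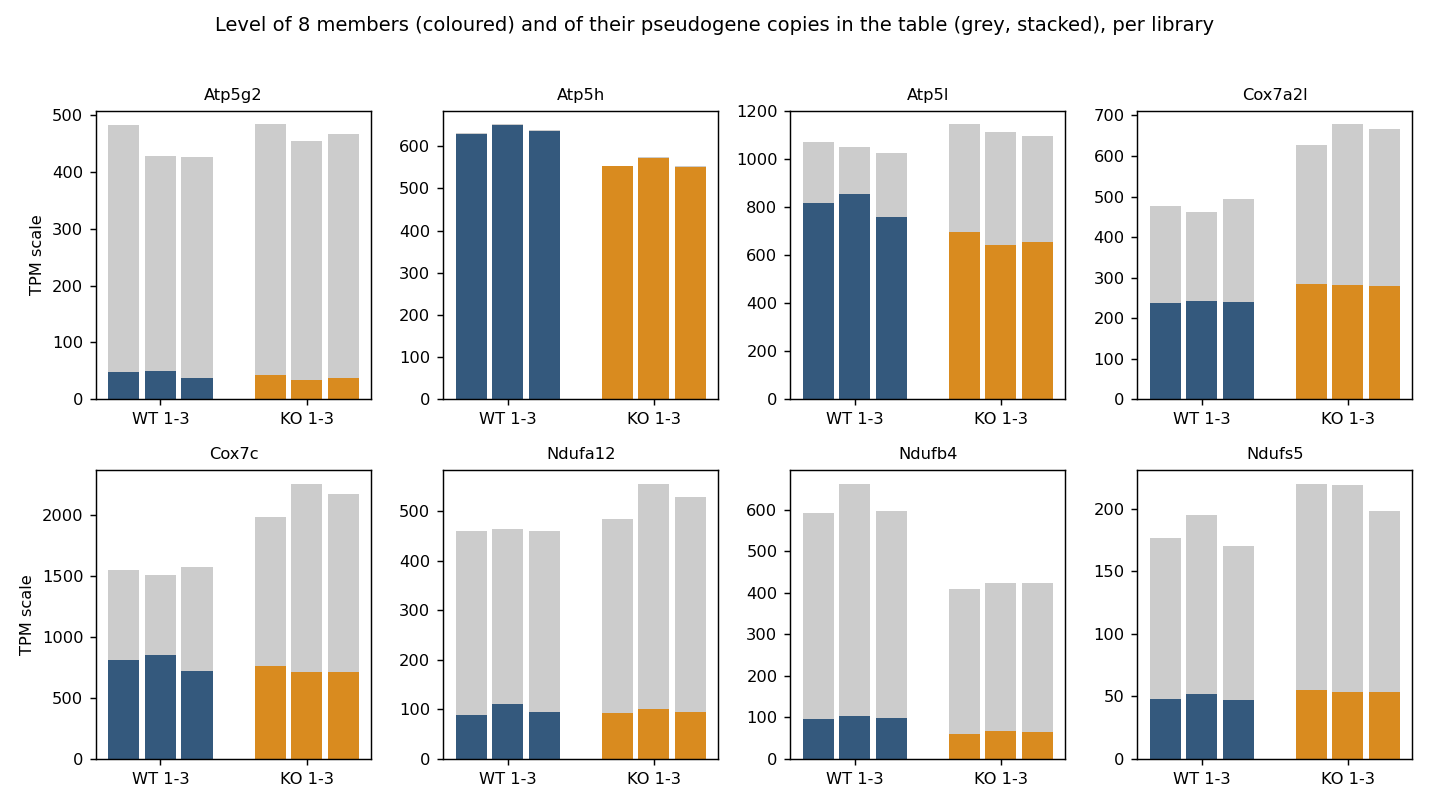
Level on the TPM scale of 8 members (coloured bars) with their pseudogene copies stacked above (grey) in WT libraries 1 to 3 and knockout libraries 1 to 3. The Atp5l bars are lower in the knockout while the stacked totals are 1023 to 1072 in WT and 1097 to 1143 in the knockout; Ndufb4 is lower in both.

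Genes that serve the chain without being members also moved both ways. Of 50 assembly factors 14 were called higher and 24 lower, beside 33.6% and 28.9% of all tested genes. Under all 5 scalings 10 and 24 were, beside 25.6% and 28.5%. Their median log2 fold change was -0.13, beside 0.00 for all genes. Among those higher were Ndufaf4 (complex I assembly, 0.69), Sdhaf2 (flavin attachment to complex II, 0.70) and Uqcc3 (complex III, 0.33). Cox19 (0.65) and Sco2 (1.07), both complex IV factors, were higher too. Ndufaf8 (-0.83), Foxred1 (-0.55), Sdhaf3 (-0.88), Sdhaf4 (-0.55) and Coa6 (-1.09) were among those lower, of which Ndufaf8, Sdhaf3 and Coa6 lie on chromosomes 11, 6 and 8. All 3 complex V factors were called lower, Atpaf2 (-0.29) and Atpaf1 (-0.18) among them, but Atpaf2, on chromosome 11, came to 0.11 when centred. Pet117, a complex IV factor, was low, at 2.37, 4.57 and 2.62 in WT and 0, 0.0897 and 0.114 in the knockout. Its groups did not overlap, and its fitted log2 fold change of -5.17 (SE 0.56) rests on values near 0.

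The genes of cytochrome c1 and cytochrome c both fell. Cyc1 lies outside the member rule by its symbol, so the complex III counts and sums leave it out. Cyc1, which encodes cytochrome c1 of complex III, went from 371, 335 and 347 to 271, 261 and 260, and Cycs, which encodes cytochrome c, from 67.3, 72.9 and 67.4 to 51.7, 53.6 and 53.0. Neither overlapped between genotypes, and both had a log2 fold change of -0.34 (SE 0.04; limma adjusted p 3.51e-05 and 2.99e-05). Cycs is on chromosome 6 and came to -0.05 when centred, whereas Cyc1, on chromosome 15, came to -0.40. Of 13 coenzyme Q genes 5 were called higher and 8 lower (33.6% and 28.9% of all genes). Under all 5 scalings these were 4 and 8 (25.6% and 28.5% of all genes). Coq10b (0.89) and Coq4 (0.58) led those higher, and Coq8a (-1.46) and Coq9 (-0.94, chromosome 8) those lower. Of the 13 subunits encoded in mitochondrial DNA 6 were called higher and 3 lower, beside 33.6% and 28.9% of all genes. Under all 5 scalings these were also 6 and 3, beside 25.6% and 28.5%, but at equal totals 6 and 7, beside 26.1% and 37.8%. Called changes ran from mt-Nd2 (0.85) and mt-Nd1 (0.75) to mt-Nd3 (-0.27) and mt-Co3 (-0.54).

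Of 22 genes of pyruvate dehydrogenase and the citric acid cycle 7 were called higher and 9 lower, beside 33.6% and 28.9% of all genes. Under all 5 scalings these were 3 and 9, beside 25.6% and 28.5% of all genes. At equal totals they were 3 and 14, beside 26.1% and 37.8%. Pdk1, the kinase that switches pyruvate dehydrogenase off and is known to be induced by hypoxia, measured 237, 237 and 250 in WT and 97.4, 104 and 102 in the knockout. The groups lay far apart, with a log2 fold change of -1.19 (SE 0.04, adjusted p 7.24e-09 by limma). Pdk4 was also lower (-1.08), while Pdha1 (0.51), the enzyme's catalytic subunit, and Idh3b (0.50) were higher. Of 20 regulators of mitochondrial biogenesis 4 were called higher and 9 lower, beside the same shares of all genes. Under all 5 scalings these were 1 and 9, beside 25.6% and 28.5% of all genes. At equal totals they were 1 and 13, beside 26.1% and 37.8%. Yy1 (0.53) was the largest rise and Tfb2m (0.22) next, though Tfb2m was not called at equal totals (0.06) or without WT replicate 3, knockout replicate 1 or knockout replicate 2 (limma adjusted p 0.0504 to 0.0612). Esrrb, which is also a stem cell factor, measured 102, 97.7 and 96.2 in WT and 53.1, 50.4 and 51.8 in knockout libraries, a clear gap (log2 fold change -0.88, SE 0.03). Ppargc1b was low and fell by 0.70. Nrf1, a transcription factor of many respiratory chain promoters, fell from 103 ± 3.58 to 73.3 ± 2.51 (SD, n = 3 each; log2 fold change -0.43, or -0.15 with chromosome 6 centred). Gabpa, the DNA-binding subunit of the ETS-family factor NRF2, did not pass (0.07, limma adjusted p 0.536).

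Promoters were read because these factors are known to act at such genes. RefSeq windows on GRCm38.p6, from 250 bases before to 50 after a start, were found for 66 of the 83 members (71 windows) and compared with all 32851 windows. On either strand, the NRF1 word GCATGCGC was in 14.1% of member windows and 2.71% of all windows, and the ETS word CCGGAAG was in 22.5% and 8.86%. The YY1 word AAGATGGCG was in 9.86% and 1.40%, the CRE word TGACGTCA in 5.63% and 1.79%, the SP1 word GGGCGG in 39.4% and 35.7%, and the ERR word TCAAGGTCA in 2.82% and 0.423%. Longer forms, the NRF1 word with GC before it and the YY1 word with G after it, were in 7.04% of member windows each (0.971% and 0.852% of all), and TATAAA in 9.86% (13.6% of all). The 10 members with the shorter NRF1 word divided into 3 called higher and 4 lower, and the 16 with the ETS word into 9 and 4, where 33 and 29 of the 83 members and 33.6% and 28.9% of all genes were called. Under all 5 scalings these were 1 and 4, and 5 and 4, where 12 and 29 of the 83 members kept their calls. No difference in calls between members with and without a word was tested. A match is only a run of letters in the window, and no binding was measured.

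Stretches just before the start of 4 members are shown, with NRF1 and ETS words in capitals, because genes with the same word moved in opposite directions or rose clearly. They lie upstream of both the RefSeq and the GENCODE start, and the first is shortened to leave out an exon of the neighbouring gene Vmac. Ndufa11 (log2 fold change 0.37) and Ndufa6 (-0.25, a matrix arm subunit at 202, 221 and 205 in WT and 167, 163 and 164 in the knockout) both hold the NRF1 word. Uqcrh (0.42) and Atp5e (0.44) hold the ETS word on the strand opposite to the gene.
Ndufa11, chr17:56717686-56717761, plus strand: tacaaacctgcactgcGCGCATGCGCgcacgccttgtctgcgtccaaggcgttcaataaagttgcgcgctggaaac
Ndufa6, chr15:82354323-82354442, minus strand: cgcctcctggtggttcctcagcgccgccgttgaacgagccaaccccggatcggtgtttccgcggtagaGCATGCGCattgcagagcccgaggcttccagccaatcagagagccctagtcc
Uqcrh, chr4:116075072-116075191, minus strand: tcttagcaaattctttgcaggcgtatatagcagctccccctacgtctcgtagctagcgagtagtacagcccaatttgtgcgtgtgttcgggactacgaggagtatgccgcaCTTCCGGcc
Atp5e, chr2:174464106-174464225, minus strand: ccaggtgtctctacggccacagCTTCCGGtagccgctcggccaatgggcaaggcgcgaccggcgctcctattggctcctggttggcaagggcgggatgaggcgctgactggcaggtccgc
The word ends a few bases before the start in Uqcrh and farther upstream in Atp5e, and the NRF1 word of Ndufa11 is overlapped by its own reverse complement.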

How the data were processed

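PolyA RNA of 6 libraries (3 per genotype) was sequenced from stranded libraries. The submitters' processing notes name kallisto, sleuth and mm10, without versions; the transcript annotation and the strand option of kallisto were not given in the sources seen. Per the file headers, the authors deposited 2 signal columns per gene, scaled reads and TPM. Neither is a count: scaled reads are not whole, and the TPM signal was rescaled by the authors, since it sums to 969840 to 1022470 per library. Of scaled reads from 0.5 to 40, 29.7% to 32.8% lay within 0.02 of whole multiples of a library's step, from which fragments were estimated, so no count test was run.

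Members, gene lists and tests were chosen with earlier results of these data known. GENCODE M21 (GRCm38, also called mm10) named 23846 of 24191 identifiers, and 345 had no match. Genotype and replicate numbers came from the sample titles. limma 3.58.1 (R 4.3.3, intensity trend) was fitted to log2(scaled reads + 1) of genes with a mean of at least 1, and was tested on simulated data. The TPM fits used log2(value + 0.1). Python 3.11.15, pandas 2.3.3, numpy 2.4.6 and matplotlib 3.10.9 were used.

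Named genes were, in each complex, the most abundant in WT and up to 3 with the largest called change in each direction; all of complex II; the complex IV isoforms and partners; the c-ring genes; members on chromosomes 6, 8 and 11; and up to 2 per direction from each other list. Atp5c1, Atp5d, Cox7c, Ndufa12, Ndufs5, Ndufa6, Nrf1, Gabpa and the members called under all 5 scalings or identical to another identifier were named after their values were seen. The count over 5 scalings, the level of 30, the shared-word rule, the form of the chromosome centring and the 4 promoters shown were also chosen after seeing the data. Of 9 words searched in promoters, the shorter NRF1 and YY1 forms were chosen after seeing counts; all 9 are given.

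Alternatives were the other scalings and the TPM column, pseudocounts of 0.1 and 10, no filter or a mean of at least 10, no intensity trend, a replicate block, a threshold of 1.2 fold, leaving out each library, and, added after seeing the data, the reads of near-identical pseudogenes.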

Additional observations from a re-analysis of the deposited data

How the results depend on the processing

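The counts of members depended most on the scaling and on the size of change asked for. At equal totals 12 members were called higher and 50 lower, at equal upper quartiles 15 were higher, on the TPM scale as deposited 19 were higher, and with TPM at equal totals 13 were higher and 44 lower. By complex I, II, III, IV and V, the members called higher were 5, 1, 1, 3 and 2 at equal totals, 8, 1, 1, 3 and 2 at equal upper quartiles, and 6, 1, 1, 3 and 2 with TPM at equal totals. On the TPM scale as deposited they were 1, 3 and 3 in complexes III, IV and V. Complex IV and V members called lower were 12 and 12, 11 and 8, and 11 and 8 in the first 3 of these fits, and 9 in complex IV with the last. Centred per chromosome, complex IV had 8 lower and complex V 3 higher. Without an intensity trend, complexes II and V had 1 and 3 lower, and III and IV had 1 and 3 higher. Against a 1.2-fold change, 5270 of all genes were higher and 4409 lower, as were 8 and 8 members: 4 and 4, 0 and 0, 1 and 1, 2 and 2, and 1 and 1 in complexes I to V. Leaving out single libraries gave 3 to 5 complex IV members called higher. Pseudocounts and filters kept every count within 1.5 times.

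Of the 83 members, 23 had a log2 fold change of another sign at equal totals, 18 at equal upper quartiles, 12 on the TPM scale as deposited, 24 with TPM at equal totals and 21 centred per chromosome. Of these 12, 7, 1, 13 and 4 had been called higher and 0, 0, 0, 0 and 6 lower. Among the genes named with values and called in at least one of the fits compared, they were, as log2 fold changes at equal totals, with TPM at equal totals and, where it turned, at equal upper quartiles: Atp5d -0.077, -0.056 and -0.046, Atp5c1 -0.087, -0.064 and -0.056, Cox7a2 -0.068, -0.076 and -0.037, Cox8a -0.153, -0.153 and -0.122, Cox7b -0.138, -0.14 and -0.107, Atp5b -0.112, -0.096 and -0.08, Uqcc1 -0.062, -0.044 and -0.031, Uqcr11 -0.025 and -0.027, Uqcrb -0.005 and -0.005, Ndufa5 -0.116, -0.128 and -0.084, and Cox6b2 -0.018 and -0.027. On the TPM scale as deposited Cox7a2 came to -0.007, Cox8a to -0.084, Cox7b to -0.071, Ndufa5 to -0.059 and Atp5b to -0.027. Among the same genes, centring each chromosome turned Ndufb2 to 0.055, Ndufa4 to 0.17, Cox4i1 to 0.31, Ndufb7 to 0.25 and Atp5h to 0.29. It turned Ndufa13 to 0.15, Uqcr10 to 0.10, Ttc19 to 0.17 and Atpaf2 to 0.11. Centring also turned Atp5d, Atp5c1, Cox7b, Cox8a and Atp5b to -0.031, -0.023, -0.171, -0.095 and -0.066. Adding near copies turned Cox7c to 0.18 and Atp5g2 to 0.15. Apart from these constructions, the cause was not tested.

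The labels do not say whether replicate numbers pair the samples, and the main fit held no pairing. Same-numbered libraries deviated together with r of 0.113, 0.079 and 0.132. Each correlated best with its own number, a hint from the data and not from the design. Values this small cannot show whether the samples were paired. With the replicate block 33 members were called higher and 31 lower, and 8183 and 6927 of all genes. Calls of Atp5c1, Atp5d, Ndufb7 and Atp5g3, all under 0.13 in size, were lost on leaving out some single libraries, and Ndufa12 (without WT replicate 2) and Atp5g2 (without WT replicate 3) gained one. The 3 members with the largest SE, Cox8c, Cox4i2 and Cox7b2, were also the 3 lowest in WT.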

Other observations

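Close relatives outside the member rule were measured too. Ndufb1-ps, annotated as a noncoding RNA with a symbol of a complex I subunit, measured 143, 153 and 132 in WT and 154, 134 and 140 in knockout libraries, so the genotypes overlapped (log2 fold change 0.08, limma adjusted p 0.291, SE 0.06). Ndufb4c, the pseudogene copy of Ndufb4, was at 497, 558 and 499 in WT and 350, 356 and 358 in the knockout, without overlap (log2 fold change -0.43, limma adjusted p 1.58e-05, SE 0.04).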
